A study of Mus musculus with 2 samples.

Results

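Matrix metalloproteinase 14 (MMP-14, gene Mmp14) and 9 genes that act with it or against it were examined on the 2 arrays of the series, 10 of 16390 named genes. The genes were taken from a list fixed by name: the membrane proteases Mmp14, Mmp15 and Mmp16, the gelatinase Mmp2, the inhibitors Timp1, Timp2, Timp3 and Timp4, the inducer Bsg and the membrane inhibitor Reck. Each array set RNA of MMP-14 KO mice against RNA of wild-type mice in 2 colours, with the wild type in Cy5 and the knockout in Cy3 on both. The first array carried Dlk+CD45-CD71-Ter119- cells sorted from fetal liver and labelled E14, each genotype pooled from 3 livers and represented by 100000 cells. Whole liver was used for the second array, with RNA of 2 livers mixed for each genotype. Its label says P1 while the design text gives E18.5 for these livers and E14.5 for the sorted cells, which was not resolved, and the labels are used here. The strain, the Mmp14 allele and the part of the gene that was deleted are not given in the sources used here.

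MMP-14 is a protease anchored in the plasma membrane that cleaves collagen and other matrix proteins. It also activates the secreted proenzyme of MMP-2: TIMP-2 bound to one MMP-14 molecule holds the proenzyme, and a neighbouring free MMP-14 molecule cuts it, so TIMP-2 is both an inhibitor and an adaptor. In liver, MMP-2 and the TIMPs are known mainly as products of stellate cells and fibroblasts.

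There was 1 array per comparison and no dye swap. No value therefore has an error between animals, no test was possible and no p-value is given, and genotype and dye cannot be told apart for a single gene. Precision is limited by the number of arrays. Each of the 10 genes had 1 probe. In place of an error between animals, 3 measures are given: the spread of the 2736 blank spots (on the E14 array an SD of 0.997 for wild type and 2.21 for knockout, on the P1 array 1.22 and 2.24), the SD of the log2 ratio between probes of 1 gene (0.12 and 0.22, over 139 genes on each array), and the difference between ways of processing.

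Log2 ratios of knockout over wild type are given on 2 scales. The first, called the main values, comes from normexp background correction with an offset of 50 and loess normalisation, and the offset draws the ratios of dim genes towards 0. The second is the value in the authors' deposited table, which equals the ratio of the signals above the blank mean, centred on the array median, to a correlation of 0.999995 on the E14 array. A signal counted as detectable when it exceeded the mean of the blank spots by 2 SD, a threshold of 44.3 (wild type) and 85.1 (knockout) on the E14 array and 50.5 and 87.0 on the P1 array. By this rule 9 of the 10 genes were detectable in both channels of the E14 array and 8 on the P1 array. Among all named genes detectable in both channels (12705 and 12715), 28 were at least 1.5-fold lower and 39 higher in the knockout on the E14 array, and 524 lower and 362 higher on the P1 array. The authors' deposited table gave 155 lower and 684 higher on the first array and 1554 and 1510 on the second, and median centring in place of loess 5 and 3158, and 320 and 1298. Median centring left the median of all genes at 0.29 on the E14 array and at 0.05 on the P1 array.

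The sorted cells carried Dlk1 and hepatoblast genes, while the gene of 1 surface protein used to deplete other cells, Tfrc, was also detectable. The signals of Dlk1 were 4971 and 11869 in the wild-type and knockout channels, with a log2 ratio of -0.03, and those of Alb 37881 and 37592, with a ratio of -1.31 (rank 6 from the lowest of 12705 genes). Ptprc, which encodes CD45, stood at 43.8 in the wild-type channel, below its threshold, and at 88.9 in the knockout channel, near its threshold of 85.1. Tfrc, the transferrin receptor gene (CD71), read 196 and 518, 154 and 197 blank SDs above the blank mean. The sort was on surface protein, which the array does not measure, so this RNA reading does not test the CD71- label. The other erythroid markers on the array were dimmer: Klf1 read 67.2 and 130, Alas2 69.8 and 147, Rhd 59.3 and 124, and Epb42 54.6 and 111. On the P1 array the liver genes Alb and Ttr were bright, and genes of lung epithelium were bright in the wild-type channel alone, as given beside the results they touch.

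RefSeq promoters (build GRCm38.p6) matched 7 of the 10 genes; Mmp16, Mmp2 and Bsg had no entry. The 250 bases before the gene start are shown for Mmp14, the targeted gene, and Timp3, the inhibitor with the lowest P1 ratio in the main values, which were lower together on the P1 array. The Mmp14 stretch is chr14:54431348-54431597 and the Timp3 stretch chr10:86300162-86300411, both on the plus strand. Capitals mark GGGCGG (GC box) and CCAAT on either strand, which overlap at one place in Mmp14.
Mmp14: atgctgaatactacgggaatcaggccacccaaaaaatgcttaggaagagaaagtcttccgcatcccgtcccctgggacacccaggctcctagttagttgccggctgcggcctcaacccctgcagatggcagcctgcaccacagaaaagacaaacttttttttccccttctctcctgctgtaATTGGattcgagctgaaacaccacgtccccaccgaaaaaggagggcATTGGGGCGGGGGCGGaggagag
Timp3: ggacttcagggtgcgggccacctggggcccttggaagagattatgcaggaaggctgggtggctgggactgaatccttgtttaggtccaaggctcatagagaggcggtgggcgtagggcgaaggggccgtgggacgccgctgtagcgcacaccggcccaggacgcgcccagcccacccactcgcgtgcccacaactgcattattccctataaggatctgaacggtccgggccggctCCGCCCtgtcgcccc
Mmp14 held 2 GC boxes and 2 CCAAT matches, and Timp3 held 1 GC box and no CCAAT. A GC box was present in 32.7% of all 32851 promoters in the same window and CCAAT in 33.8%. Neither promoter held TATAAA (12.4% of all promoters) or the AP-1 motif TGANTCA (6.75%). The Timp3 stretch had 18 CpG dinucleotides and 65.6% G and C, and that of Mmp14 had 10 and 55.2%, against medians of 6 and 52.4% over all promoters. Among the other inhibitors, Timp2 (21 CpG) and Reck (19) had GC-rich promoters of the same kind, while Timp4 had 2 CpG and no GC box. These matches describe the sequence only.

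Both arrays had less Mmp14 signal in the knockout. On the E14 array its signal was 131 in the wild-type channel and 132 in the knockout channel, where the knockout reading exceeded the wild-type reading by a median factor of 2.09 over all probes. Its log2 ratio was -1.13, the lowest of the 9 measured genes of the axis and rank 9 from the lowest of 12705 genes, and -2.13 in the authors' deposited table. Its P1 signals were 161 and 104, its log2 ratio -1.30 (rank 102 from the lowest of 12715) and its value in the authors' deposited table -2.83. There the wild-type reading was the higher one even before scaling, although a typical probe read 1.65 times higher in the knockout channel.

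Mmp14 signal remained in both knockout channels. The knockout readings lay 23.3 blank SDs above the blank mean on the E14 array and 9.64 on the P1 array. In the authors' deposited table they correspond to 22.8% and 14.1% of the wild type. By the main values, whose offset draws the ratios of dim genes towards 0, they correspond to 45.8% and 40.7%. Moving each channel by 1 blank SD changed the E14 ratio of the blank-subtracted signals only between -2.21 and -2.06, and the P1 ratio between -3.00 and -2.67. The sources used here do not say which part of the transcript the probe reads, so it does not tell whether the remaining signal is Mmp14 transcript. With the local background columns used in normexp, the ratios were -0.45 and -0.27, within 1.5-fold. The local background at the Mmp14 spot was nearly as high as the spot, at 104 of 131 in the wild-type and 115 of 132 in the knockout channel of the E14 array. This column was also high at the bright Bsg spot of that array, at 1154 of 1294 and 2501 of 3805, while the blank spots averaged 42.3 and 80.7. At Timp3 on the P1 array it was low, at 62.3 of 522 and 131 of 299. Whether the column measures background at a given spot was not tested.

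**Figure D1:**
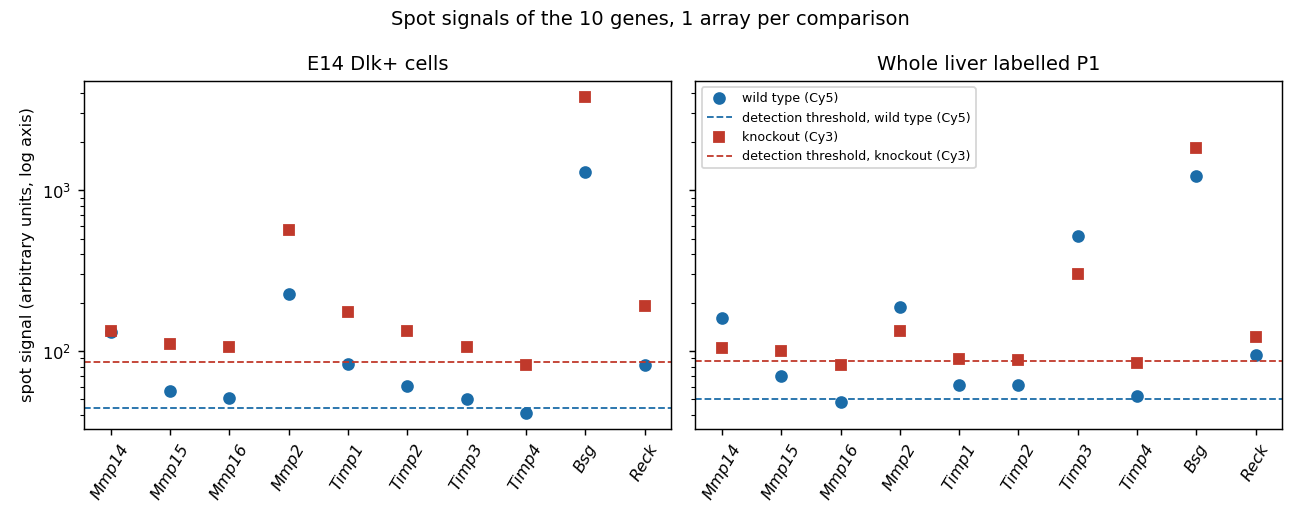
Spot signal (log axis, arbitrary units) of the 10 genes in the wild-type (circles) and knockout (squares) channels of each array, with the detection thresholds of both channels as dashed lines. Most genes lie higher in the knockout channel, the brighter channel on both arrays, while Mmp14 is level at 131 and 132 on the E14 array, and Mmp14, Mmp2 and Timp3 lie lower in the knockout on the P1 array.

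The other membrane proteases, Mmp15 (MT2-MMP) and Mmp16 (MT3-MMP), which can also activate MMP-2, were dim and showed no ratio past 1.5-fold in the main values. Mmp15 read 56.7 (wild type) and 110 (knockout) on the E14 array and 69.8 and 100.4 on the P1 array, above the threshold in all 4. Its log2 ratios were -0.08 and -0.16, and -0.31 and -0.71 in the authors' deposited table. Mmp16 read 50.9 and 105 on the E14 array, just above the thresholds, with a ratio of 0.02, and 48.1 and 81.4 on the P1 array, below both. Where they could be measured, neither relative was at least 1.5-fold higher beside the lower Mmp14. At the dim E14 signals of Mmp15, moving each channel by 1 blank SD spread its ratio from -0.52 to -0.11. Its P1 value in the authors' deposited table was past 1.5-fold, but the same move spread it from -0.98 to -0.46, on both sides of that limit.

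Mmp2, the secreted gelatinase that MMP-14 activates, did not differ by 1.5-fold in the sorted cells and was lower in the knockout P1 liver. Its signals were 226 (wild type) and 567 (knockout) on the E14 array, with a log2 ratio of 0.09, and 187 and 134 on the P1 array, with a ratio of -1.08. The authors' deposited table gave 0.06 and -1.88. The P1 knockout reading of Mmp2 lay 23.0 blank SDs above the blank mean, and moving each channel by 1 blank SD kept the P1 ratio between -1.95 and -1.80. With median centring the E14 ratio was 0.67, where the median of all genes was 0.29. With the local background in normexp the P1 ratio of Mmp2 was -0.15, and the local background at its spot read 174 of 187 and 123 of 134. As at Mmp14, whether this column measures background was not tested.

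Timp3, the inhibitor that stays bound to the extracellular matrix, had the lowest P1 ratio of the 8 measured genes in the main values. In the authors' deposited table Mmp14 (-2.83), Timp2 (-1.88) and Mmp2 (-1.88) lay below Timp3 (-1.57), and Mmp14 was also below it with an offset of 10 (-2.05 and -1.57), with median centring (-1.25 and -1.10) and with the blank mean subtracted (-2.72 and -1.65). Timp3 was read near the threshold in the sorted cells, at 50.3 and 106, with a log2 ratio of 0.04. In the P1 liver it read 522 for wild type and 299 for knockout, and its log2 ratio was -1.38 (rank 72 from the lowest of 12715 genes). Both P1 signals of Timp3 were bright against the blank spots, 388 and 96.8 SDs above their mean, and its local background was low (62.3 and 131). Its P1 ratio stayed between -1.76 and -1.10 under the 9 ways of processing, a narrower range than those of Mmp14 and Mmp2.

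Timp2 and Timp1 were dim in the P1 liver, and their P1 ratios depended on how dim signals were treated. Timp2, the adaptor for the MMP-2 proenzyme, read 60.1 and 133 on the E14 array and 61.2 and 87.4 on the P1 array, where the knockout threshold was 87.0. Its log2 ratios were 0.07 and -0.25, and 0.19 and -1.88 in the authors' deposited table. Its P1 knockout reading lay 2.17 blank SDs above the blank mean, so that moving each channel by 1 blank SD spread the P1 ratio from -2.90 to -1.19. Timp1, an inhibitor of many secreted MMPs that acts poorly on MMP-14, read 82.7 and 174 on the E14 array and 61.3 and 89.4 on the P1 array. Its ratios were -0.04 and -0.21, and -0.14 and -1.39 in the authors' deposited table, where 1 blank SD in each channel spread the P1 value from -2.08 to -0.84. For both genes the P1 difference had the same sign under all 9 ways of processing, of which the brightest probe repeats the main value. The size of the difference was not determined at these signals.

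Timp4 was not detectable in 3 of the 4 channels. It read 41.2 and 81.5 on the E14 array and 52.4 and 83.6 on the P1 array, where the wild-type channel alone passed its threshold. Against the lowest detectable level of the knockout channel, after loess and Aquantile normalisation, the bound was 1.08-fold lower in the P1 knockout. This bound is open to dye bias, and its log2 value of 0.11 lies below the SD between probes of 1 gene on that array (0.22). The P1 wild-type reading lay 3.64 blank SDs above the blank mean. No difference in Timp4 is claimed from these values.

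Bsg and Reck, which act on MMPs from the cell surface, stayed within 1.5-fold in the main values. Bsg encodes basigin (EMMPRIN), a membrane glycoprotein that raises MMP production by neighbouring cells. It read 1294 and 3805 on the E14 array and 1220 and 1826 on the P1 array, with log2 ratios of 0.28 and -0.06. The sign of the P1 value of Bsg was positive in the authors' deposited table (0.14), with median centring (0.40) and with the local background in normexp (1.15). Reck, a membrane-anchored inhibitor of MMP-14, MMP-2 and MMP-9, read 81.7 and 191 on the E14 array and 94.4 and 121 on the P1 array. Its ratios were 0.10 and -0.25, and 0.14 and -0.69 in the authors' deposited table.

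**Figure D2:**
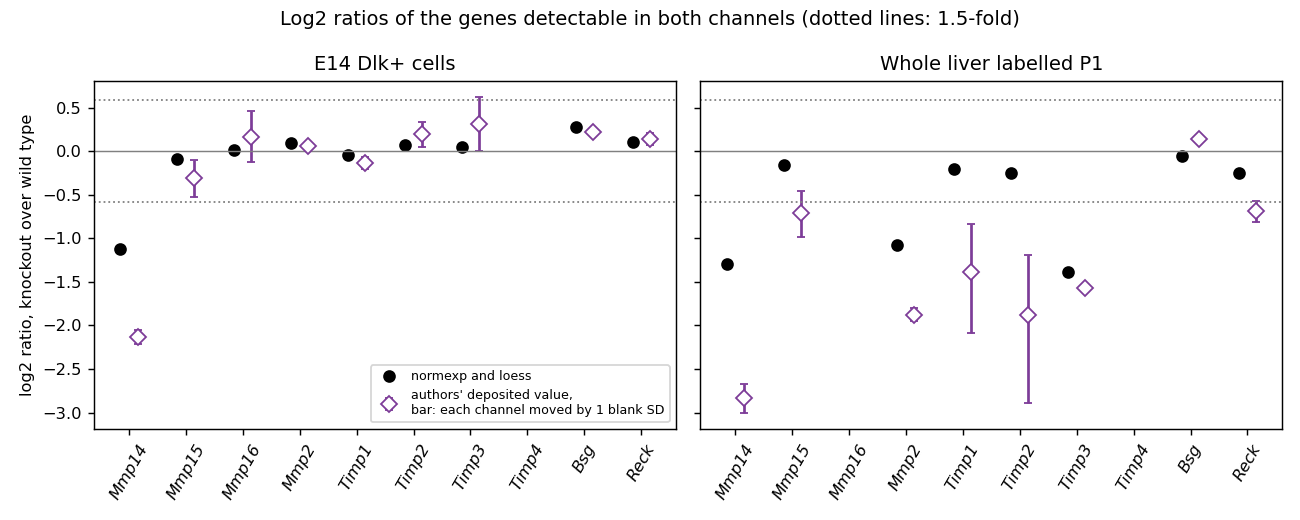
Log2 ratio of knockout over wild type for the genes detectable in both channels, from normexp and loess (filled circles) and from the authors' deposited table (open diamonds); the bars show the range when each channel is moved by 1 blank SD, and dotted lines mark 1.5-fold. On the E14 array Mmp14 stands alone below the lower line, and on the P1 array Mmp14, Mmp2 and Timp3 lie below it by both measures, while the bars of Timp1 and Timp2 are the longest.

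In the sorted cells 1 of the 9 measured genes, Mmp14, was at least 1.5-fold lower in the knockout, and 0 were higher. Over all genes of that array 0.22% were at least 1.5-fold lower and 0.307% higher. The median log2 ratio of the 9 genes was 0.04, and that of all genes 0.0068. By the authors' deposited table Mmp14 was again the 1 gene past 1.5-fold, with 1.22% of all genes lower and 5.38% higher. In the P1 liver 3 of the 8 measured genes were at least 1.5-fold lower (Mmp14, Mmp2 and Timp3) and 0 were higher, where 4.12% of all genes were lower and 2.85% higher. The median of the 8 genes was -0.25, and that of all genes -0.0018. By the authors' deposited table, all except Bsg, 7 of the 8, were at least 1.5-fold lower, where 12.2% of all genes were lower and 11.9% higher. All these values come from 1 array each, so the counts describe those arrays.

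The P1 genes that were lower stood beside far lower lung genes and lower genes of several other cell types. Of 12 stellate cell and fibroblast markers, 12 were detectable, 10 were below 0 and 4 were at least 1.5-fold lower (Col1a2, Col3a1, Tagln and Acta2), with a median of -0.48. Their summed signal above the blank mean was 4364 for wild type and 3106 for knockout. Of 12 lung epithelial markers, 9 were detectable in both P1 channels and all 9 were at least 1.5-fold lower, with a median of -5.24. Their summed signal above the blank mean was 41811 for wild type and 401 for knockout, against 80.6 and 209 on the E14 array, where Scgb1a1 was not detectable in either channel. Of 8 endothelial markers 7 were detectable in both P1 channels, and 5 of them were at least 1.5-fold lower (median -0.67). Of 6 mesothelial markers 4 were detectable in both P1 channels and 2 were at least 1.5-fold lower (Msln and Podxl, median -0.64). Of the 5 erythroid markers on the arrays, 2 were lower (Klf1 and Rhd, median -0.54). All 6 leukocyte markers were below 0 and 2 were at least 1.5-fold lower (Cd52 and Tyrobp, median -0.26), although Ptprc, Coro1a and Laptm5 stood above 0 with median centring. Of 8 macrophage markers 1 was lower (Cd5l, median -0.21). Of 8 hepatoblast markers 3 were lower, Alb (-1.12), Ttr (-1.65) and Igf2 (-0.98), and Afp stood at 0.14 (median -0.18). None of the markers of these lists was at least 1.5-fold higher on the P1 array in the main values. The part of the signals of these cell types in the P1 ratios of Mmp14, Mmp2 and Timp3 was not tested. In whole liver, fewer cells of a type and less RNA per cell cannot be told apart.

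In the sorted cells 4 hepatoblast markers were lower in the knockout and 4 stromal markers higher in the main values. Of the 8 hepatoblast markers on the arrays 7 were below 0 and 4 were at least 1.5-fold lower, with a median of -0.41. These were the secreted liver proteins Ttr (-1.36), Alb (-1.31) and Afp (-1.26) and the growth factor Igf2 (-0.70), all bright, and 0 were higher. With median centring the ratios of Ttr, Alb and Afp were -0.60, -0.54 and -0.49, and 0.06 for Igf2. The dimmer hepatoblast markers Dlk1 (-0.03), Hnf4a (-0.12), Prox1 (-0.02) and Foxa3 (0.11) stayed within 1.5-fold in the main values. Eef1a1 (-0.98) and Rpl41 (-1.34), which are not on the list and were also among the brightest spots, were lower too. The part of brightness in these ratios was not tested. Of the 12 stellate cell and fibroblast markers 11 had a ratio above 0, and 4 were at least 1.5-fold higher in the knockout (Dcn, Lum, Lhx2 and Tagln), with a median of 0.40. Beside them Mmp2 stood at 0.09, Timp2 at 0.07, Timp3 at 0.04 and Timp1 at -0.04. Of the 6 mesothelial markers 2 were at least 1.5-fold lower, Upk3b and Podxl (median -0.17), and of the 6 leukocyte markers 5 were detectable in both channels and 0 differed by 1.5-fold. The authors' deposited table gave 3 mesothelial markers lower and 0 higher, and 2 leukocyte markers higher and 0 lower. The part of the signals of these cell types in the E14 ratio of Mmp14 was not tested.

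**Figure D3:**
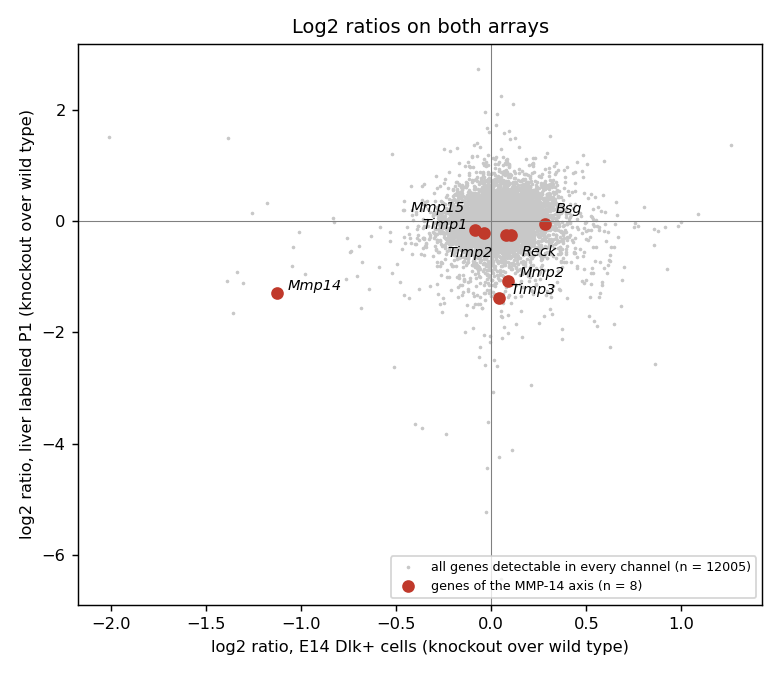
Log2 ratio of knockout over wild type on the E14 array (horizontal axis) and on the P1 liver array (vertical axis) for 12005 genes detectable in every channel, with the 8 genes of the MMP-14 axis among them in red and labelled. Mmp14 lies low on both axes, and Mmp2 and Timp3 lie low on the P1 axis only, at 0.09 and 0.04 on the E14 axis.

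Levels in the 4 channels were set side by side for each gene after loess and Aquantile normalisation, on a log2 scale. There is no replicate, so the order carries no error. Mmp14 stood at 7.53 and 7.49 in the E14 and P1 wild-type channels and at 6.40 and 6.20 in the knockout channels, so the wild-type channels were alike and both above the knockouts. Mmp2 was highest in the E14 cells, at 8.49 (knockout) and 8.40 (wild type), followed by the P1 wild type (7.73) and the P1 knockout (6.65). Timp3 had the widest range, 3.19 from the E14 wild type (6.14) to the P1 wild type (9.32), with the E14 knockout at 6.18 and the P1 knockout at 7.94. Timp1 ran from 6.92 in the E14 wild type to 5.94 in the P1 knockout, and Timp2 from 6.51 in the E14 knockout to 5.89 in the P1 knockout. Mmp2, Timp1, Timp2, Bsg and Reck each had both E14 levels above both P1 levels, and Timp3 the reverse. Cy5 marked the wild type each time, but the arrays differ in stage and in sorting, and the bright P1 wild-type level of Timp3 came from the channel that also held the lung genes.

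The genes whose pair of log2 ratios lay closest to that of Mmp14, among 11997 genes outside the axis, were Alb (distance 0.25), Trf (0.35), Eef1a1 (0.37), Ttr (0.42) and Rpl41 (0.43). The distance is over 2 ratios, 1 per array. All 5 were among the brightest spots, with E14 wild-type signals from 28900 (Eef1a1) to 39329 (Trf) against 131 for Mmp14. In the authors' deposited table, a scale added after the data were seen, the nearest was Pnp at a distance of 0.96 (-1.38 on the E14 and -3.42 on the P1 array), whose signals of 50.7 and 89.0 on the E14 array lay near the thresholds. The 5 nearest genes on that scale shared 0 genes with the first list. For Mmp2 the nearest were Hoxa5 (0.02), Fabp1 (0.02), Slco3a1 (0.05), Plk2 (0.06) and Manf (0.06). In the authors' values they were Slc7a10 (0.05), Dusp14 (0.07), Spint1 (0.08), Prmt2 (0.08) and Aldh1a7 (0.08), again with 0 genes shared.

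Other genes of MMP-14 biology were taken from 6 lists. Of their 66 genes 65 were on the arrays, and both channels detected 55 (E14) and 57 (P1). In the main values 0 were at least 1.5-fold lower on the E14 array, against 0.22% of all genes. There 2 were higher, 3.64% of the 55 against 0.307% of all genes (median 0.03). By the main values of the P1 array 10 were lower, 17.5% of the 57 against 4.12% of all genes, and 1 was higher, 1.75% against 2.85% (median -0.14). The lists hold several collagen and stromal genes along with others, and the P1 wild-type channel also held lung genes, as given above. The part of stromal or lung cells in the P1 values of these lists was not tested.

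Of the convertases that remove the propeptide of MMP-14 inside the cell, Furin stood at -0.0074 on the E14 and 0.01 on the P1 array, and 0 of the 3 detectable genes of that list passed 1.5-fold on either array. Of the other membrane-type MMPs, Mmp17 and Mmp24 were detectable and stayed within 1.5-fold on both arrays, and Mmp25 was not detectable. Among secreted inhibitors and clearance genes, Pcolce, which encodes an enhancer of procollagen processing, stood at 0.42 and -0.74. It was the only 1 of 9 past 1.5-fold on the P1 array in the main values, while the authors' deposited table gave 2 lower and 0 higher. Lrp1, the receptor that takes up MMP-2 and TIMP complexes, stood at 0.03 and -0.56, and the protease inhibitor gene A2m at 0.25 and 0.39.

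Among surface partners, 3 of 19 were at least 1.5-fold lower and 1 higher on the P1 array in the main values, and none of the 19 passed 1.5-fold in the E14 cells. The authors' deposited table gave 2 lower and 1 higher on the P1 array, and 1 lower and 0 higher in the E14 cells. The caveolin gene Cav1, whose product is linked to the uptake of MMP-14, read 1196 (wild type) and 150 (knockout) on the P1 array, with a log2 ratio of -3.71, and stood at -0.37 in the sorted cells. The P1 wild-type channel also held lung genes, and the part of lung cells in the P1 ratio of Cav1 was not tested. The tetraspanin genes Cd81 (-0.73) and Cd151 (-0.61) were the other lower partners. The higher one was Slc16a7 (0.62), a monocarboxylate transporter. Cd44, which anchors MMP-14 at the cell front, was not detectable on either array.

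Among substrates, Dcn (0.86) and Lum (0.66) were at least 1.5-fold higher in the E14 knockout cells in the main values and 0 of 18 lower. Of these 18, 5 were lower and 0 higher on the P1 array. The authors' deposited table gave 3 higher and 0 lower on the E14 array, and 9 lower and 0 higher on the P1 array. The lowest in the main values of the P1 array were the fibrillar collagen genes Col3a1 (-1.93) and Col1a2 (-1.82), the elastic fibre gene Fbln5 (-1.79) and the laminin gene Lama5 (-0.73). Eng stood at -0.67. Of the secreted MMPs, Mmp11 was lower on the P1 array, at 192 (wild type) and 120 (knockout) with a log2 ratio of -1.30, against 0.02 on the E14 array. The collagenase gene Mmp8 read 401 and 668 on the P1 array, with a ratio of 0.18. Mmp13 was not detectable on either array, and Mmp9 was not detectable in the sorted cells and stood at 0.06 on the P1 array.

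**Figure D4:**
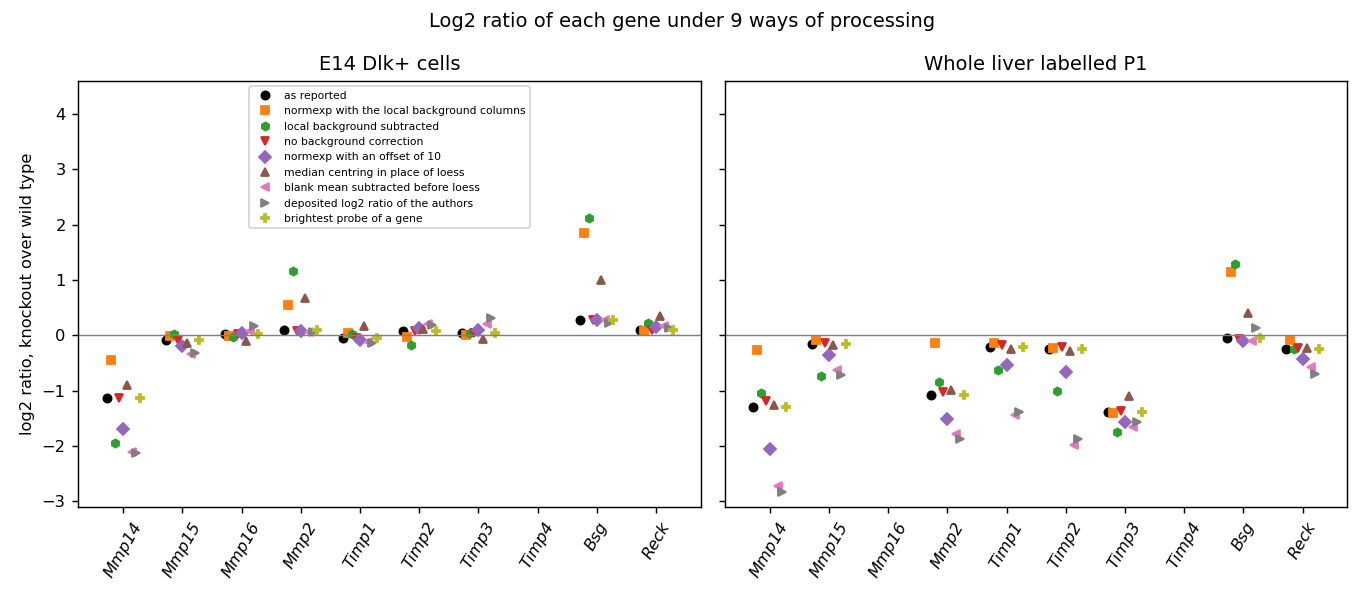
Log2 ratio of knockout over wild type of each measured gene under 9 ways of processing, on the E14 array (left) and the P1 liver array (right). Each symbol is 1 way of processing, and the brightest probe repeats the main value because each gene had 1 probe. Mmp14 lies below 0 under all 9 on both arrays, from -2.13 to -0.45 and from -2.83 to -0.27, and Timp3 on the P1 array from -1.76 to -1.10, while Bsg crosses 0 on the P1 array.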

How the data were processed

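Two-colour array data of 2 arrays were used, 1 per comparison. The deposited scanner files hold the spot intensity of both channels and a local background intensity per spot, combined over 3 gains and not normalised, per the file headers. The authors' deposited value table holds a log2 ratio of knockout over wild type, per the labels. Amino allyl RNA was made by amplification before the dyes were attached, per the labels' protocols; image software and genome build are not given in the sources used here.

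Log2 ratios were computed with limma 3.58.1 in R 4.3.3: normexp on the spot signal (offset 50), loess within each array with control spots at weight 0, and means over the probes of a gene. The normalisation was tested on simulated data with 200 genes of known fold per array. For the main values the simulation checked the sign of the ratio and not its size. Those genes were all brighter in the wild-type channel than Mmp15, Mmp16, Timp1, Timp2, Timp4 and Reck, so it does not cover genes as dim as these. On the E14 array they were also all brighter than Mmp14 and Timp3, so the simulation does not cover the E14 ratios of these 2 genes. The 4 quality-flagged probes of the E14 array were left out. Of 23473 probes, 16631 carried 1 gene symbol in the table used, and 6842 carried none or more than 1 and were left unnamed. Older symbols were replaced through the GRCm38.p6 RefSeq table (12622 current, 3947 updated, 62 kept). A gene is called at 1.5-fold, with no test. The blank mean and SD leave out 5 percent of the blank spots at each end.

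Members and lists were chosen with earlier results of these data known. All members are named; of each pathway list, up to 4 genes past 1.5-fold per array, and others as named background of the pathway, chosen after their values were seen (Furin, Lrp1, A2m, Mmp8, Mmp9, Mmp13, Mmp17, Mmp24, Mmp25, Cd44, Eng). Marker genes past 1.5-fold were also named after their values were seen. The alternatives were other background corrections, median centring, the authors' values, the brightest probe, a threshold at 3 SD, no filter on dim probes and a 2-fold limit; blank subtraction before loess was added after seeing the data. With 1 array per comparison, no replicate could be left out.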

Additional observations from a re-analysis of the deposited data

Results flagged for a closer look

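For 5 of the 8 genes measured on both arrays the log2 ratio of knockout over wild type was above 0 in the sorted E14 cells and below 0 in the P1 liver. The P1 ratio minus the E14 ratio was -1.42 for Timp3 (0.04 and -1.38) and -1.17 for Mmp2 (0.09 and -1.08). It was -0.35 for Reck (0.10 and -0.25), -0.34 for Bsg (0.28 and -0.06) and -0.33 for Timp2 (0.07 and -0.25). These differences were not tested, since each rests on 1 array per condition. In the main values those of Timp3 and Mmp2 come with a ratio past 1.5-fold on the P1 array and the others do not. In the authors' deposited table the P1 ratios of Timp2 (-1.88) and Reck (-0.69) are past 1.5-fold as well. The difference there was -2.07 for Timp2, -1.93 for Mmp2, -1.88 for Timp3 and -0.83 for Reck, and the P1 sign of Bsg turned (0.14). The arrays differ in sorting and in stage, and the P1 wild-type channel held lung genes, so the differences cannot be ascribed to stage.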

How the results depend on the processing

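Each gene of the axis had 1 probe, so of the 9 ways of processing the brightest probe repeats the main value by construction. Mmp14 was below 0 under every one of the 9 on both arrays. In the sorted cells its log2 ratio was -0.45 with the local background in normexp, -1.95 with it subtracted, -1.69 with an offset of 10, -0.89 with median centring, -2.11 with the blank mean subtracted before loess and -2.13 in the authors' values. On the P1 array it was -0.27, -1.03, -2.05, -1.25, -2.72 and -2.83 in the same order. A smaller offset draws the ratios of dim genes less towards 0 by construction. For the other differences the cause was not tested. On the E14 array 3 genes of the axis differed by 1.5-fold with the local background subtracted (Mmp14, Mmp2 and Bsg) and 3 with median centring (Mmp14, Mmp2 and Bsg). With the local background in normexp the single call was Bsg (1.86). On the P1 array 2 differed with the local background in normexp, Timp3 (-1.41) and Bsg (1.15, higher), while Mmp14 and Mmp2 (-0.15) came within 1.5-fold. There 4 differed with an offset of 10, Timp2 (-0.67) being added, 7 with the local background subtracted, 6 with the blank mean subtracted and 7 in the authors' values, and the median of the measured genes moved from -0.25 to -0.79, -1.55 and -1.48, and to -0.61 with an offset of 10. Over all genes, 67 differed by 1.5-fold on the E14 array and 886 on the P1 array. These counts were 519 and 1338 with the local background in normexp, 2747 and 4196 with it subtracted, 137 and 1529 with an offset of 10, 3163 and 1618 with median centring, 784 and 2818 with the blank mean subtracted, 839 and 3064 in the authors' values, and 14 and 256 at 2-fold. At a threshold of 3 SD 7 genes of the axis were measured on the P1 array, without Timp2, and the same 3 were called. Signal over the blank spots limits Mmp15, Timp1, Timp2 and Timp4 on the P1 array and Mmp16 and Timp3 on the E14 array. Mmp16 was not detectable in either P1 channel, nor Timp4 in either E14 channel. No paired analysis was possible because each comparison has 1 array.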
